A study of Rattus norvegicus with 30 samples.

Results

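The 87 most abundant transcripts of the rat kidney in these data held 43.3 ± 1.77% (SD, n = 30) of all transcript-level signal, although they were 0.217% of the 40071 Ensembl transcripts listed. They were chosen by level: an Ensembl transcript was taken when its TPM averaged at least 1000 over all 30 libraries. TPM is a count of reads divided by the effective length of the transcript and scaled so that every library sums to the same total. The levels themselves, the shares and the rank order therefore follow from how the transcripts were chosen and are given as a description, without tests. Differences between the groups were not part of the rule and were tested. The average includes dosed kidneys, so a transcript raised in some groups could enter through them, as ENSRNOT00000024601 and ENSRNOT00000082300 did, among others. For such a transcript the difference between the groups is not independent of the choice.

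One library was made per animal from whole kidneys of 30 rats of the outbred Sprague-Dawley stock, in 6 groups of 5. Vehicle animals received saline at 1 ml/kg, low dose animals mercury chloride (HgCl2) at 0.25 mg/kg and high dose animals HgCl2 at 0.50 mg/kg, with collection of the kidney at 10 or 34 h. The 2 doses were chosen to differ in the injury they cause. Kidneys were powdered whole, and every value is thus an average over all cell types of the organ. In such bulk samples, fewer cells of a type and less RNA per cell cannot be told apart.

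Inorganic mercury is taken up mainly by the proximal tubule, the stretch of the nephron that recovers most of the filtered water, salt, sugar and amino acids. Proximal tubule cells are dense in mitochondria, and poly-A libraries of kidney are known to be rich in messages made by the mitochondrial genome, in messages for respiratory chain subunits and ribosomal proteins, and in those of transporters and metabolic enzymes. Because TPM is a share of a fixed total, a rise of a very abundant transcript lowers the value of every other. Which of the 87 transcripts belong to which of these classes is not stated, because the deposited files carry transcript identifiers without gene names and none of them could be matched to the reference tables used here. The labelled tissue could not be checked against marker genes for the same reason, and no sequences are shown.

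Read depth overlapped between all groups. Libraries held 21.6 to 41.8 M estimated counts, of which 20.2 to 39.1 M fell on Ensembl transcripts and 5.09 to 11.5 M on the 87. A group of 4 libraries each had 100 or more transcripts that were over 2-fold outside the range of the remaining 29: vehicle replicate 2 and high dose replicate 2 at 10 h, and high dose replicates 3 and 4 at 34 h. They are called the libraries that stand apart, and values without them are given where they matter.

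The pool was led by 5 transcripts that together held 18.8 ± 1.14% (SD, n = 30) of all TPM. ENSRNOT00000050156, 1545 bases long, stood at 44654 ± 2844 TPM (SD, n = 30). ENSRNOT00000046108 (681 bases) stood at 43909 ± 3458 TPM and ENSRNOT00000049683 (784 bases) at 37431 ± 2881 TPM. ENSRNOT00000043693 (684 bases) followed at 32988 ± 3219 TPM and ENSRNOT00000046201 (204 bases) at 28549 ± 3563 TPM. These 5 were the 5 most abundant Ensembl transcripts in each of the 30 libraries.

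The next 5 ranks lay between 12507 and 17629 TPM. ENSRNOT00000042098 averaged 17629 TPM, ENSRNOT00000079830 13881 TPM and ENSRNOT00000047550 13687 TPM. ENSRNOT00000040993 averaged 13006 TPM and ENSRNOT00000041241 12507 TPM. With the transcript at rank 11, the leading 11 held 27.1 ± 1.71% of all TPM. The leading 7 alone made up over 1 part in 2 of what the 87 held, and the 72 transcripts from rank 16 down held 13.0 ± 0.612%. To reach 50% of all TPM, 118 to 199 Ensembl transcripts were needed per library, with a median of 168.5.

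**Figure D1:**
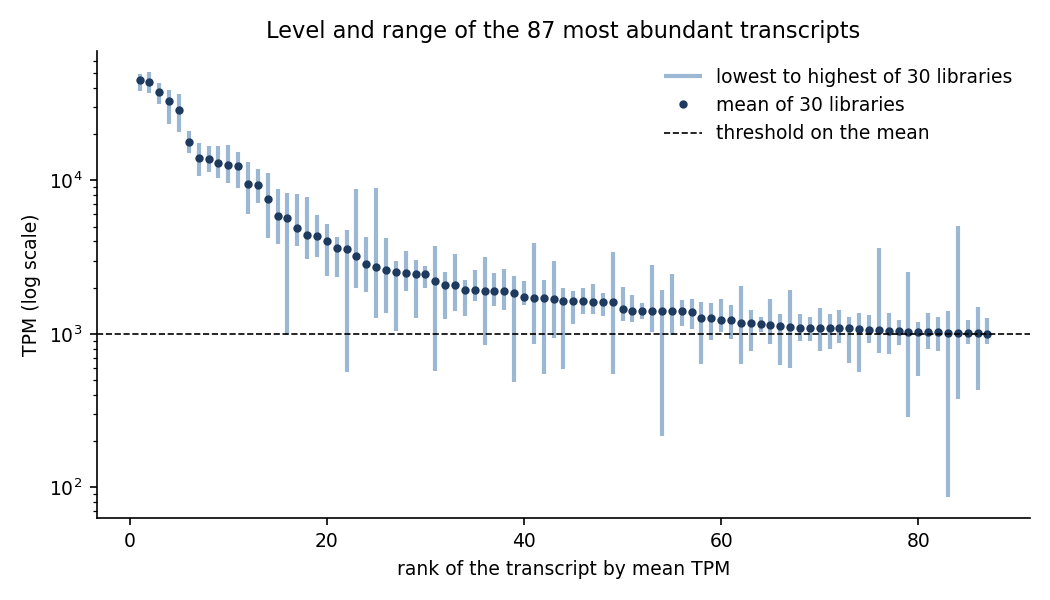
Mean TPM of the 87 transcripts in order of rank (points) with the lowest and highest of the 30 libraries (vertical bars), on a log scale; the dashed line is the threshold of 1000 on the mean. The leading 5 lie at 28549 TPM or more with short bars, and the longest bars belong to transcripts further down, such as that of ENSRNOT00000035685, which reaches from 87.1 to 1405 TPM.

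Near the threshold the choice was narrow. Just inside, ENSRNOT00000000181 averaged 1005 TPM (429 to 1485) and ENSRNOT00000089074 1004 TPM (858 to 1263). Just outside, ENSRNOT00000024106 averaged 997 TPM (829 to 1231) and ENSRNOT00000089027 987 TPM (609 to 1165). ENSRNOT00000000181 and ENSRNOT00000089074 reached 1000 TPM in 15 and 14 libraries, whereas both transcripts just outside reached it in 13 and 18. Of all 87, 47 were at 1000 TPM or more in every library.

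The share of the pool was alike across dose and time. At 10 h the 87 held 43.7 ± 1.82% of all TPM in the vehicle (SD, n = 5 in each group), 43.7 ± 2.0% after the low dose and 43.7 ± 0.85% after the high dose. At 34 h they held 43.2 ± 1.59% in the vehicle, 43.7 ± 1.62% after the low dose and 41.9 ± 2.53% after the high dose. The ranges of all 6 groups overlapped. The 5 high dose kidneys of 34 h held 42.6, 45.9, 40.3, 39.4 and 41.2% (replicates 1 to 5), and the pair of lowest shares of all 30 belonged to replicates 3 and 4, which stand apart. Over the 26 other libraries of the study the share averaged 43.6 ± 1.62%. The highest share, 47.3%, was that of low dose replicate 1 at 10 h, whose 4 group mates held 42.7 to 42.9%.

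**Figure D2:**
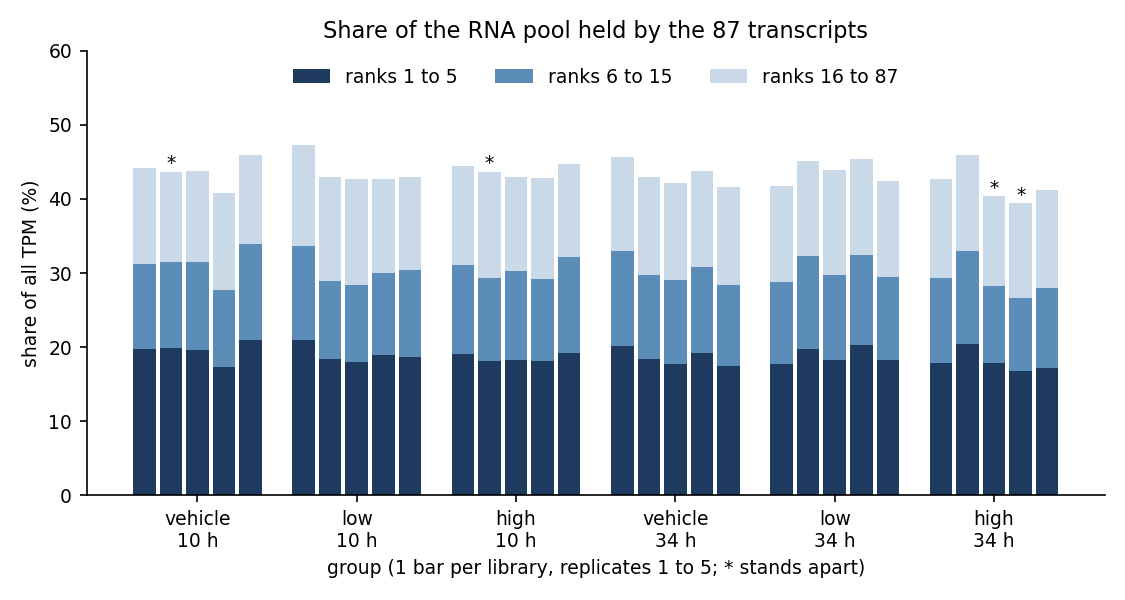
Share of all TPM held by the 87 transcripts in each library (bars, replicates 1 to 5 in each group), divided into ranks 1 to 5, 6 to 15 and 16 to 87; asterisks mark the libraries that stand apart. Every bar ends between 39.4 and 47.3%, and no group lies outside the range of another.

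Counted as reads, the 87 weighed less. They held 26.9 ± 1.29% (SD, n = 30) of the estimated counts on Ensembl transcripts, as they were short. Their median length was 793 bases (quartiles 444.5 and 1506), against 1281 bases for all 40071 Ensembl transcripts and 1258 bases for the 1093 transcripts of 100 to under 1000 TPM. All of the leading 15 were shorter than 1600 bases, with a median of 684. The longest of the 87 was ENSRNOT00000040430 with 3636 bases, and 12 exceeded 2000 bases.

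Length also entered the values through the effective length, which is the number of positions at which a sequenced fragment could start. It was at most 50% of the length in 21 of the 87. For ENSRNOT00000046201, at rank 5, the effective length averaged 54.0 of 204 bases. Its 1351 CPM (estimated counts scaled to the library's total on Ensembl transcripts, without regard to length) put it at rank 47 by counts. With the full length in place of the effective one its TPM would be 10370. ENSRNOT00000050156, with 51726 CPM, was first on both scales.

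The order by TPM and the order by counts therefore differed. Only 49 of the 87 were among the 87 highest by CPM, and 44 reached 1000 CPM. With full lengths, 68 of the 87 kept a mean of at least 1000 TPM.

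The extreme cases were 3 transcripts under 110 bases. ENSRNOT00000040283, with 69 bases the shortest of the 87, is shorter than 1 read of 75 bases. It had a mean of 1035 TPM from 461 counts per library (209 to 924), and its effective length was put at 11.2 to 31.9 bases in different libraries. ENSRNOT00000071826 (79 bases) averaged 1406 TPM from 580 counts, at rank 7779 by CPM. ENSRNOT00000073776 (101 bases) averaged 3590 TPM from 1345 counts, at rank 4150 by CPM. Their places among the most abundant transcripts rest on very short effective lengths, and with full lengths their means would be 342, 384 and 696 TPM.

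**Figure D3:**
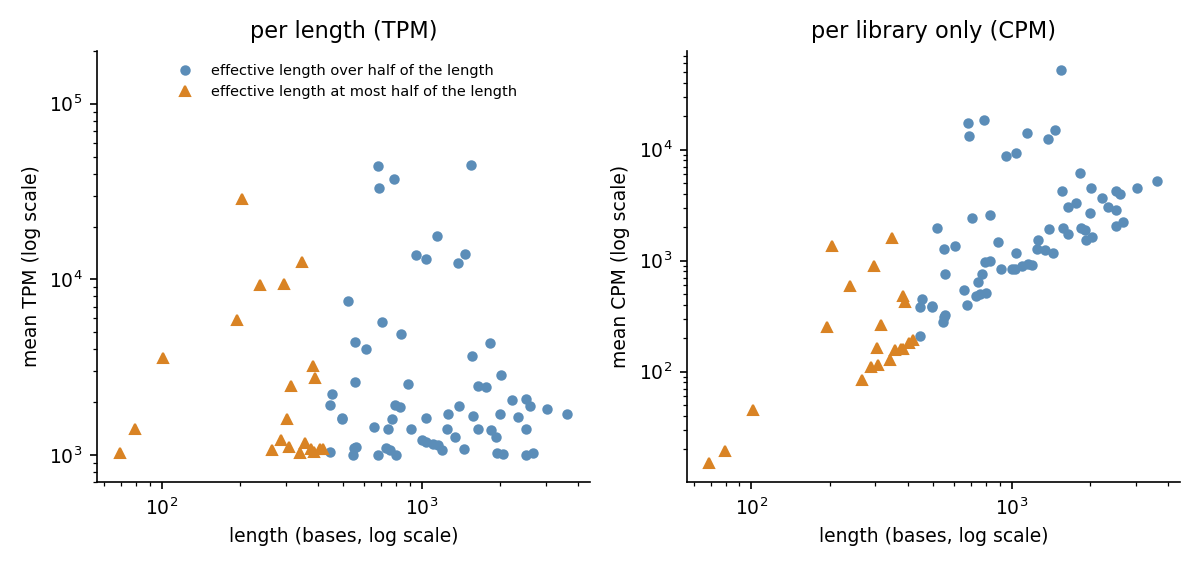
Length of each of the 87 transcripts against its mean TPM (left) and its mean CPM (right), all axes on log scales; triangles mark the 21 transcripts whose effective length was at most 50% of their length. The triangles spread over the whole height of the left panel, from 1029.7 to 28549 TPM, and mostly fill the lower part of the right panel, from 15.1 to 1598 CPM.

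Part of the 87 shared reads with other targets. kallisto, the program behind the deposited values, divides a read that fits several targets among them. In 51 of the 87 (58.6%) all counts were whole numbers in every library, against 39.1% of the 21112 transcripts that were tested. These 51 held 32.1% of all TPM. The other 36 held 11.2%, and their levels are uncertain to the extent that reads were divided. Of the leading 15, 11 had whole counts, and ENSRNOT00000046201 was among those that did not.

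The order at the top was steady, while neighbours in it were often indistinguishable. ENSRNOT00000050156 lay above ENSRNOT00000046108 in 18 of 30 libraries, with a mean log2 ratio of 0.03 ± 0.10 (SD, n = 30). Both ranks 2 and 3 and ranks 5 and 6 kept their order in all 30 libraries. ENSRNOT00000046108 exceeded ENSRNOT00000049683 by 0.23 ± 0.07 on the log2 scale, and ENSRNOT00000046201 exceeded ENSRNOT00000042098 by 0.69 ± 0.16. Ranks 3 and 4 kept it in 28 libraries and ranks 4 and 5 in 25. The full order of the leading 5 was that of the means in 14 libraries, and in 8 more only the pair at the top was exchanged.

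From rank 7 to rank 11 the transcripts formed a plateau without a fixed order. ENSRNOT00000079830 exceeded ENSRNOT00000047550 in 18 libraries, ENSRNOT00000047550 exceeded ENSRNOT00000040993 in 24, and ENSRNOT00000040993 exceeded ENSRNOT00000041241 in 16. The SDs of these log2 ratios, 0.21, 0.11 and 0.19, were larger than their means of 0.02, 0.08 and 0.05. The step from rank 11 to rank 12 was again kept in all 30 libraries, as a pair. The transcript at rank 12 could still pass others of the plateau, and the 11 most abundant of a library held 10 or 11 of the leading 11. The leading 11 never ranked below 12 in any library. Among all 86 pairs of neighbours only the 3 named steps were kept everywhere.

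Over all 87, Spearman's rho of TPM between libraries had a median of 0.924 in the 60 pairs from 1 group and 0.898 in the 375 pairs from different groups. This is across transcripts, which are not independent replicates. The lowest value, 0.70, arose in both kinds of pair and rose to 0.81 and 0.78 without the libraries that stand apart. Of the 87 most abundant Ensembl transcripts of a library, 65 to 82 were among the 87 of the means. The 3 lowest of these numbers were 65 for high dose replicate 2 at 10 h, 66 for high dose replicate 4 at 34 h and 67 for high dose replicate 3 at 34 h, all libraries that stand apart, and all other libraries had 74 or more.

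Group means of the leading transcripts differed little beside their spread. ENSRNOT00000050156 averaged 46185 ± 2365, 45954 ± 2681 and 43707 ± 1848 TPM (SD, n = 5) in vehicle, low and high dose at 10 h, and 43727 ± 2753, 44900 ± 2342 and 43452 ± 4501 TPM at 34 h. Its highest group mean was 1.06 times its lowest. ENSRNOT00000046108 had its highest mean in the vehicle at 10 h (46064 ± 4129 TPM) and its lowest in the high dose at 34 h (41807 ± 4051 TPM). All 6 ranges overlapped for each of these 2 transcripts.

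ENSRNOT00000046201 varied somewhat more, with 30165 ± 2754, 29971 ± 2741 and 25876 ± 3189 TPM at 10 h and 26464 ± 4421, 29535 ± 2875 and 29285 ± 4113 TPM at 34 h. ENSRNOT00000042098 was the most even of the 87 across groups, with means of 17188 to 17990 TPM. In 44 of the 87 transcripts the highest group mean was less than 25% above the lowest, and in 15 it was at least 1.5 times the lowest.

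The spread between animals of a group was small for most of the 87. The SD of log2 CPM within groups had a median of 0.21 (quartiles 0.16 and 0.32), where all 21112 tested transcripts had 0.27 and the 1093 transcripts of 100 to under 1000 TPM had 0.17. The leading 15 had a median of 0.17 and a maximum of 0.29. Without the libraries that stand apart, the median of the 87 was 0.16, and those of the other sets were 0.23 and 0.13. On the log2(TPM + 1) scale the medians were 0.19 for the 87, 0.20 for all tested transcripts and 0.16 for the class of 100 to under 1000 TPM, with upper quartiles of 0.30, 0.29 and 0.24. By the medians, the 87 thus lay below all tested transcripts by CPM and close to them on the log2(TPM + 1) scale. The added 1 narrows the spread of transcripts of low TPM and hardly changes that of the 87. The closeness on that scale therefore does not show that the 87 were no steadier than other transcripts by TPM. The 87 lay above the class of 100 to under 1000 TPM on both scales. These differences were not tested.

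The 3 steadiest were ENSRNOT00000040430 (SD 0.096), ENSRNOT00000050443 (0.098) and ENSRNOT00000091873 (0.11). ENSRNOT00000040430 ranged from 1546 to 2222 TPM over all 30 libraries and ENSRNOT00000091873 from 1258 to 1582 TPM. For ENSRNOT00000040430 and ENSRNOT00000050443 (1031 to 1677 TPM) the highest value came from high dose replicate 3 at 34 h, which stands apart.

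By group, the median SD of the 87 was 0.14 in the vehicle, 0.19 in the low dose and 0.24 in the high dose at 10 h, and 0.13, 0.14 and 0.27 at 34 h. All tested transcripts had 0.20, 0.22 and 0.27 at 10 h and 0.21, 0.18 and 0.31 at 34 h. Without the libraries that stand apart the high dose groups had 0.16 at 10 h (4 libraries) and 0.17 at 34 h (3 libraries). No test of these spreads was made.

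Single kidneys accounted for many of the extremes. In high dose replicate 3 at 34 h, 21 of the 87 had their lowest CPM of all 30 libraries. In high dose replicate 2 at 10 h this held for 12, in low dose replicate 5 at 10 h for 12 and in high dose replicate 4 at 34 h for 11. The highest CPM fell to high dose replicate 4 at 10 h for 29 of the 87, to high dose replicate 4 at 34 h for 11 and to low dose replicate 1 at 10 h for 10. The TPM scale gave other numbers. On it the lowest values fell most often to high dose replicate 2 at 10 h (18), high dose replicate 4 at 34 h (16) and high dose replicate 3 at 34 h (12), and low dose replicate 5 at 10 h had 4. The highest TPM fell to high dose replicate 4 at 10 h for 18 and to high dose replicate 2 at 10 h for 11, while high dose replicate 4 at 34 h had 5. Low dose replicate 1 at 10 h had 10 highest and 0 lowest values by CPM but 3 highest and 8 lowest by TPM. A vehicle kidney held at most 3 highest and 2 lowest values by CPM, and at most 6 and 3 by TPM. In high dose replicate 4 at 10 h, log2 CPM was compared with each transcript's median over all libraries. The median deviation was 0.18 over the 87, 0.29 in the shorter of them and 0.11 in the longer ones. Not every transcript lay higher, as 1 of the 87 had its lowest CPM of all libraries in this kidney. Such numbers are not given for all tested transcripts, so they do not set the 87 apart from them.

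**Figure D4:**
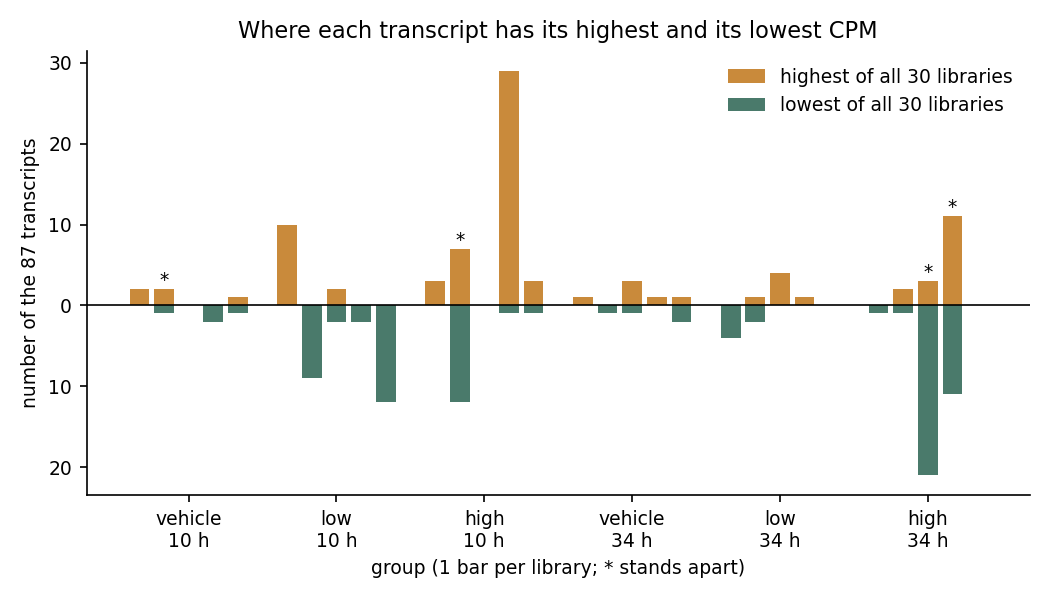
Number of the 87 transcripts with their highest CPM (bars up) and their lowest CPM (bars down) of all 30 libraries in each library, replicates 1 to 5 from left to right in each group; asterisks mark the libraries that stand apart. High dose replicate 4 at 10 h has the tallest bar up, with 29, and high dose replicate 3 at 34 h the longest bar down, with 21.

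ENSRNOT00000079005 (798 bases) had the largest spread, with an SD of 1.00 on the log2 scale. In the vehicle at 10 h it stood at 441, 379, 647, 5008 and 490 TPM (replicates 1 to 5), and in the vehicle at 34 h at 462, 517, 2460, 669 and 468 TPM. In the high dose at 34 h it stood at 1327, 448, 585, 4703 and 648 TPM. The 3 highest kidneys came from 2 vehicle groups and 1 high dose group, and the low dose libraries of both times stayed between 455 and 938 TPM. Its counts were not whole.

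ENSRNOT00000024601 (769 bases, whole counts) followed with an SD of 0.76. In the vehicle it stood at 903, 954, 731, 588 and 662 TPM at 10 h and at 1050, 792, 746, 859 and 943 TPM at 34 h. After the low dose it stood at 2900, 3264, 3400, 664 and 548 TPM at 10 h and at 1341, 1074, 3169, 3322 and 774 TPM at 34 h. After the high dose it stood at 1453, 3360, 1083, 1278 and 975 TPM at 10 h and at 3346, 1547, 2445, 2239 and 1743 TPM at 34 h. No vehicle kidney exceeded 1050 TPM, and the low dose kidneys of each time fell into high and low values.

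ENSRNOT00000024160 (1259 bases, whole counts) showed a like picture at 10 h. It stood at 877 to 1334 TPM in the vehicle. The low dose kidneys had 3250, 3587, 3879, 1066 and 862 TPM and high dose replicate 2 had 3629 TPM, where the other high dose kidneys had 1189 to 1700. The same 4 kidneys were highest at 10 h for ENSRNOT00000057898 (4095 to 8917 TPM, all others 1671 to 2367) and for ENSRNOT00000067391 (3634 to 8810 TPM, all others 2153 to 3188). These 3 transcripts were singled out after their values had been seen.

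In other transcripts a single kidney fell far below all others. ENSRNOT00000035685 (2047 bases), with an SD of 0.73, stood at 877, 1174, 87.1, 1105 and 1074 TPM in the high dose at 34 h, and all other groups lay between 729 and 1405 TPM. The same kidney, replicate 3, had the lowest ENSRNOT00000007806 (981 TPM, in the other 29 libraries 3105 to 8261). ENSRNOT00000073776 stood at 563 TPM in high dose replicate 4 at 34 h and at 3070 to 4727 TPM in the other 29, and ENSRNOT00000071826 at 217 TPM there and at 628 to 1926 elsewhere. ENSRNOT00000007806 and the last pair were also chosen after their values had been seen. Without the libraries that stand apart, the SDs within groups were 0.24 for ENSRNOT00000035685, 0.24 for ENSRNOT00000007806, 0.097 for ENSRNOT00000073776 and 0.12 for ENSRNOT00000071826, against 0.73, 0.55, 0.47 and 0.53 with them. For ENSRNOT00000024601 the SD was 0.78 without and 0.76 with them.

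**Figure D5:**
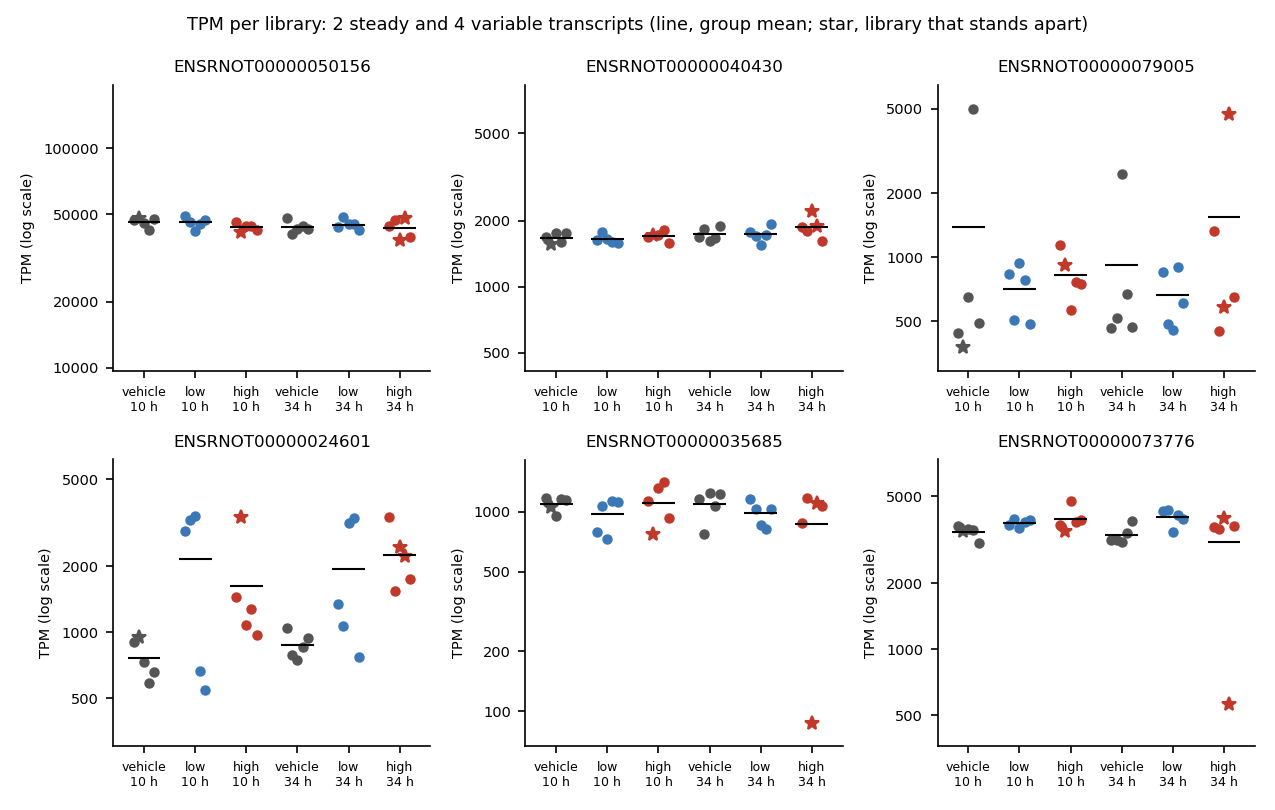
TPM in each library (points, stars for libraries that stand apart) with the group mean (line), on log axes that differ between panels, for the leading transcript, the steadiest, the 3 most variable and ENSRNOT00000073776. The upper left pair of panels is nearly flat, ENSRNOT00000024601 stays at or below 1050 TPM in all vehicle kidneys, and the lowest star of ENSRNOT00000035685 lies at 87.1 TPM.

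No member of the 87 passed the test in any comparison of groups. All comparisons were fitted with edgeR's quasi-likelihood test on all 21112 tested transcripts, and a call is a Benjamini-Hochberg adjusted p under 0.05. A test of any difference among the 6 groups called 0 of the 87 and 0.128% of all tested transcripts. At an unadjusted p under 0.05 were 28 of the 87 (32.2%), beside 18.5% of all. DESeq2 called 12 of the 87 (7.31% of all) and limma voom with quality weights 32 (17.1% of all). Without the libraries that stand apart edgeR called 3 of the 87 (2.39% of all), without low dose replicate 4 at 10 h 3 (2.61%) and without high dose replicate 2 at 10 h 1 (0.943%). The lowest adjusted p of the 87 was 0.102, that of ENSRNOT00000017840, with 0.00291 to 0.216 over the alternatives.

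At 10 h, each dose group is an unbroken run of library numbers. Dose therefore cannot be told apart from a batch that would go with those numbers. For the low dose against the vehicle, edgeR called 0 of the 87 and 0% of all transcripts. An unadjusted p under 0.05 was found for 19 of the 87, beside 9.02% of all, and DESeq2 and limma voom called 0 of the 87 (0.36% and 0% of all). The median log2 fold change of the 87 was -0.05 (-0.095 to -0.020 over the alternatives) and that of all tested transcripts 0.00. In 71 of the 87 it was smaller than 0.32 in either direction. The groups overlapped in each of the 87, where 0.507% of all tested transcripts were higher without overlap and 0.753% lower.

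The lowest p for the low dose at 10 h was that of ENSRNOT00000057898, with 654 ± 324 CPM after the low dose (325 to 1004) and 292 ± 28.7 CPM in the vehicle (271 to 341; SD, n = 5). The difference was 1.16 on the log2 scale (SE 0.31), and edgeR gave an adjusted p of 0.551 (0.0738 to 0.841 over the alternatives). The widest difference was that of ENSRNOT00000024601, at 1.45 (SE 0.52, edgeR adjusted p = 0.551). Low dose replicates 4 and 5 lay within or near the vehicle range in both.

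For the high dose against the vehicle at 10 h, edgeR called 0 of the 87, beside 0.00474% of all. An unadjusted p under 0.05 was found for 22 (14.1% of all). DESeq2 called 11, of which 7 were higher and 4 lower (4.62% of all), limma voom 0 (0.00474% of all) and the edgeR fit of all 30 libraries 1, which was lower (0.294% of all). The median log2 fold change of the 87 was 0.10, with 59 above 0 and 28 below, and that of all tested transcripts 0.01. It was 0.050 without high dose replicate 4 and 0.045 on the log2(TPM + 1) scale. The groups did not overlap in 2 of the 87 that were higher (1.82% of all) and 3 that were lower (1.96%).

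ENSRNOT00000017840 had the lowest p of the 87 here. After the high dose it stood at 1848, 1385, 1567, 1481 and 1432 CPM, and in the vehicle at 1938, 2309, 2305, 2223 and 2151 CPM. Every high dose kidney lay below every vehicle kidney. On the log2 scale the difference was -0.49 (SE 0.10, edgeR adjusted p = 0.174). The adjusted p was 0.0407 in the fit of all 30 libraries and 2.2e-05 with DESeq2, and it ranged up to 0.394 over the other alternatives. In the low dose at 10 h it stood at 1520 to 2164 CPM.

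High dose set against low dose at 10 h also gave 0 calls among the 87 and 0% among all by edgeR, with 20 of the 87 at an unadjusted p under 0.05 (17.2% of all). DESeq2 called 7 (5.31% of all), limma voom 14 (11.4%) and the fit of all 30 libraries 6 (3.19%), all of the 87's calls being higher after the high dose. The median log2 fold change was 0.15 in the 87 and 0.01 in all tested. On the log2(TPM + 1) scale these medians were 0.051 and -0.061. Groups did not overlap in 2 of the 87, both higher (2.01% of all), and in 0 that were lower (1.76% of all). ENSRNOT00000064611 (195 bases) had the lowest p, with 313 ± 57.2 CPM after the high and 202 ± 33.7 CPM after the low dose (SD, n = 5). It differed by 0.63 on the log2 scale (SE 0.14, edgeR adjusted p = 0.112, 0.00196 to 0.281 over the alternatives), and every high dose kidney (256 to 409 CPM) lay above every low dose kidney (174 to 245). In the vehicle of 10 h it spanned 184 to 313 CPM, across both dose groups.

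At 34 h, edgeR called 0 of the 87 for the low dose against the vehicle, beside 0.0332% of all, with 22 at an unadjusted p under 0.05 (14.3% of all). DESeq2 called 4, of which 2 were higher and 2 lower (2.1% of all), and limma voom 0 (0.00474% of all). In 1 of the 87 the low dose lay higher without overlap (1.28% of all) and in 1 lower (1.37%). The median log2 fold change of the 87 was -0.07 (-0.114 to -0.032 over the alternatives), and that of all tested transcripts was -0.01. ENSRNOT00000021027 had the lowest p, with 3396 ± 310 CPM after the low dose and 4006 ± 136 CPM in the vehicle (SD, n = 5). The difference of -0.24 (SE 0.07) had an edgeR adjusted p of 0.245 (0.0164 to 0.693 over the alternatives), and 1 low dose kidney overlapped the vehicle range of 3790 to 4144 CPM. With a term for the run of library numbers, divided at number 46, edgeR also called 0 of the 87, beside 2 of all 21112. The low dose libraries all fall on the side of vehicle replicates 4 and 5. Vehicle replicates 1 to 3 then do not enter the difference, so this fit is a weak check. The low dose libraries of 34 h are themselves an unbroken run, with vehicle libraries before and after it. A batch limited to those numbers cannot be told apart from dose.

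For the high dose against the vehicle at 34 h, edgeR called 0 of the 87 and 0% of all transcripts. An unadjusted p under 0.05 was found for 2 of the 87, beside 5.52% of all, DESeq2 called 1 (0.194% of all) and limma voom 0. The median log2 fold change of the 87 was -0.11, with 65 below 0 and 22 above, where all tested transcripts had a median of 0.00. It was -0.08 without high dose replicates 3 and 4, -0.051 without replicate 3 alone and -0.064 on the log2(TPM + 1) scale.

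ENSRNOT00000024601 had the lowest p of the 87 in this comparison. Its mean in both vehicle groups lay under the threshold of 1000 TPM, so it was among the 87 only through dosed kidneys. Its differences from the vehicle are therefore not independent of the choice. High dose kidneys had 1530, 750, 1057, 1142 and 828 CPM and vehicle kidneys 516, 386, 359, 423 and 431 CPM, so that the groups did not overlap. It was the only one of the 87 that lay higher in this way, beside 0.625% of all tested transcripts, and none of the 87 lay lower, beside 0.531%. The difference was 1.32 on the log2 scale (SE 0.19, edgeR unadjusted p = 2.4e-05, adjusted p = 0.172). Adjusted p was 7.9e-09 with DESeq2, 0.418 with a term for the run of library numbers and 0.483 without the libraries that stand apart, with differences of 1.33, 1.34 and 1.29. Leaving out vehicle replicate 2 gave the highest adjusted p, 0.670. After the low dose at 34 h it differed from the same 5 vehicle kidneys by 1.12 (SE 0.41, edgeR adjusted p = 0.292). After the high dose at 10 h it differed from the vehicle of that time by 1.12 (SE 0.32, edgeR adjusted p = 0.218).

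High dose was also set against low dose at 34 h. Here edgeR called 0 of the 87 and 0% of all, and 0 of the 87 had an unadjusted p under 0.05 (3.21% of all had one). With a term for the run of library numbers 10 of the 87 had one (10% of all), and without high dose replicate 2 this held for 5 (6.03% of all). The term for the run divides the libraries at number 46, which takes high dose replicates 1 and 2 out of the difference between doses. That difference then rests on high dose replicates 3 to 5, of which 3 and 4 stand apart. By adjusted p, DESeq2 called 0 (0.0189% of all) and limma voom 0. The groups overlapped in each of the 87, where 0.298% of all were higher and 0.27% lower without overlap. In 85 of the 87 the difference was smaller than 0.32 on the log2 scale. The largest was that of ENSRNOT00000079005, at 1.29 (SE 0.64, edgeR adjusted p = 0.999), which fell to 0.28 without high dose replicates 3 and 4.

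The library numbers of the vehicle groups of 34 and 10 h do not interleave. Time therefore cannot be told apart from a batch that would go with those numbers. Between these groups, edgeR called 0 of the 87, beside 0.00474% of all. At an unadjusted p under 0.05 were 13 of the 87 (9.66% of all), DESeq2 called 2, both higher at 34 h (0.621% of all), and limma voom 0. The median log2 fold change was 0.06 in the 87, with 63 above 0, and 0.00 in all tested transcripts. ENSRNOT00000066266 (452 bases) had the lowest p, with 517, 585, 616, 560 and 493 CPM at 34 h and 476, 274, 289, 389 and 365 CPM at 10 h. Every kidney of 34 h lay above every kidney of 10 h. It was the only one of the 87 to do so (0.853% of all), and none lay lower without overlap (0.772%). The difference was 0.63 (SE 0.14) with an edgeR adjusted p of 0.477 (0.006 to 0.755 over the alternatives, the lowest with DESeq2). Its counts were not whole.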

How the data were processed

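Whole frozen kidneys were powdered, and poly-A libraries from a stranded kit were read as 75-bp pairs, per the labels' protocols. The authors deposited 1 table per library with an estimated count and a TPM value for each of 65166 targets, made with kallisto 0.42.2 and build Rnor_6.0, per the submitters' processing notes; the sources used here do not give the annotation release or the options. Of the targets, 25095 are genomic intervals, which stayed in the TPM total and out of the tests.

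The deposited TPM values were used as given for levels, shares and ranks. Estimated counts were rounded, kept by filterByExpr (21112 transcripts, all 87 among them) and tested with edgeR 4.0.16 (quasi-likelihood, robust, TMM) on the groups compared, in R 4.3.3; limma 3.58.1 and DESeq2 1.42.0 served as alternatives. The SE is the log2 fold change divided by the square root of F. CPM in the text are TMM-scaled, except those used to rank transcripts by counts. Counts within 1e-06 of a whole number in every library were taken as whole. The edgeR script was tested on simulated data. Depth, 21.6 to 41.8 M estimated counts, limits the transcripts of few counts most.

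The members and settings were chosen with earlier results of these data known. Named are the 10 leading transcripts, those nearest the threshold, the 3 most and 3 least variable, the shortest and the longest; the transcript of lowest p in each comparison was added after the data had been seen. Lists of genes and markers could not be matched to the transcript identifiers and were not run.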

Additional observations from a re-analysis of the deposited data

Results flagged for a closer look

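In 120 groups of 5 values, those of the shares and of the transcripts named by level, length, threshold or spread, 18 had 1 library far from the other 4 by Dixon's criterion. Chance gives about 1 in 20 groups of independent values. The 120 groups share the same libraries and include the most variable transcripts, so they cannot be set against that rate. Over all 87 transcripts, 55 of 522 groups had 1 library apart, and these groups share libraries too. Of the 55, 14 rested on high dose replicate 2 at 10 h, 7 on high dose replicate 3 and 6 on high dose replicate 4 at 34 h.

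Low dose replicate 1 at 10 h had a share of the TPM pool of 47.3%, its group mates 42.7 to 42.9%. Vehicle replicate 4 at 10 h was low in ENSRNOT00000049683 (33069 TPM, the others from 38922) and high in ENSRNOT00000000181 (1267 TPM, the others up to 888) and in ENSRNOT00000079005 (5008 TPM, the others up to 647). Vehicle replicate 2 at 10 h was low in ENSRNOT00000079830 (13253 TPM, the others from 14768). At 10 h after the high dose, replicate 2 was high in ENSRNOT00000024601 (3360 TPM, the others up to 1453) and ENSRNOT00000050443 (1346 TPM, the others up to 1218), and replicate 4 in ENSRNOT00000089074 (1263 TPM, the others up to 1048).

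In the vehicle at 34 h, replicate 5 was low in ENSRNOT00000041241 (10543 TPM, the others from 12958) and replicate 3 high in ENSRNOT00000079005 (2460 TPM, the others up to 669). In the low dose at 34 h, replicate 4 was high in ENSRNOT00000043693 (36157 TPM, the others up to 32059) and replicate 3 in ENSRNOT00000079830 (16440 TPM, the others up to 14052). In the high dose at 34 h, replicate 2 was high in ENSRNOT00000046201 (36566 TPM, the others up to 28351) and ENSRNOT00000042098 (20996 TPM, the others up to 17052). Replicate 3 of that group was low in ENSRNOT00000035685 (87.08 TPM, the others from 877). Replicate 4 was low in ENSRNOT00000043693 (23095 TPM, the others from 30718) and high in ENSRNOT00000079005 (4703 TPM, the others up to 1327) and ENSRNOT00000040283 (1495 TPM, the others up to 742).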

How the results depend on the processing

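The number of transcripts chosen was 232 at 500 TPM, 33 at 2000 TPM, 47 where every library had to reach 1000 TPM and 44 where 1000 CPM were asked as well; without single libraries it was 85 to 88. The share of the pool was 39.4% with full lengths, 26.9% as a share of counts, 53.4% at 500 TPM and 36.1% at 2000 TPM, and 43.18 to 43.45% without single libraries. No member was called by edgeR in the 7 comparisons of pairs of groups under another normalization, filter, library sizes without the 87, genomic intervals kept or any single library left out, with the run of library numbers (the 3 comparisons at 34 h), without the libraries that stand apart (all but low dose against vehicle at 34 h, which holds none), nor by limma on log2(TPM + 1) or log2(TPM + 10). Where the low dose is compared, the term for the run of library numbers leaves only part of the other group in the difference. At 10 h, DESeq2 called 11 between high dose and vehicle (4.62% of all tested) and 7 between the doses (5.31%). At 34 h it called 4 between low dose and vehicle (2.1%) and 1 between high dose and vehicle (0.194%). It called 2 between the vehicle groups (0.621%) and 12 for any difference (7.31%). The fit of all 30 libraries called 1 (0.294% of all tested) and 6 (3.19%) in the comparisons of the high dose at 10 h. Limma voom with quality weights called 14 for high against low dose at 10 h (11.4%) and 32 for any difference (17.1%). For any difference, edgeR called 3 without the libraries that stand apart (2.39% of all tested) and 0 to 3 without single libraries (0 in all but 2 of 30, where 2.61% and 0.943% of all were called). The cause was not tested. No paired analysis was possible because the labels give no replicate number that groups share. Depth limits the 3 transcripts under 110 bases most, with 461 to 1345 counts per library on average.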
